A study of Mus musculus with 32 samples.

Results

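The calcium/calmodulin-dependent protein kinase (CaM kinase) family was followed here through 10 of the 18138 gene symbols of the array. These were the CaMKII subunit genes Camk2a, Camk2b, Camk2d and Camk2g, the CaMKI genes Camk1 and Camk1g, the CaMKIV gene Camk4, the upstream kinase genes Camkk1 and Camkk2, and the pseudokinase gene Camkv. Members were chosen by symbol, and every probe carrying one of these symbols was kept, 18 of the 25697 probes of the table. Of these, 14 probes of 9 genes were detected often enough to be tested. Camkk1 was lower in ethanol-treated mice over all arrays, on the chip that held both groups and between the other chips. On the shared chip treatment coincided with array position, and Camkk1 was also lower at the same positions of the other chips. Probes of Camk2d and a probe of Camk2a were higher mainly between chips, and the probes of Camk1g moved in opposite directions. That Camk2a probe was lower, on the other chips, at the positions that ethanol-treated mice held on the shared chip. With chip and position both in the model, 0 member probes passed an FDR of 10%.

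CaM kinases read calcium signals through calmodulin. CaMKII is a large holoenzyme built from subunits of several genes, is among the most abundant proteins of the excitatory synapse, and is required for forms of long-term potentiation. CaMKK phosphorylates and activates CaMKI and CaMKIV, which act on dendrite growth and on transcription through CREB, and CaMKK2 also phosphorylates the AMP-activated protein kinase. Camkv resembles a CaM kinase but lacks kinase activity.

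The FCtx of 32 female mice, labelled C57BL/6J x FVB/NJ F1, was hybridized to Illumina MouseRef-8 arrays, with 1 array per mouse. The 20 ethanol-treated mice had a choice between 20% ethanol and water in daily limited-access sessions in the dark over 20 days, and the 12 controls were not treated with ethanol. No allele or other agent distinguished the groups, the Methods name reciprocal crosses where the labels give 1 direction, and the labels do not give the age at sampling. Chips 1 and 2 held 8 ethanol-treated mice each, chip 4 held 8 controls, and on chip 3 the odd positions (A, C, E and G) carried 4 ethanol-treated mice and the even positions (B, D, F and H) 4 controls. Treatment therefore cannot be told apart from chip outside chip 3, nor from position on chip 3. Between 9480 and 11544 probes were detected per array. The lowest number belonged to control C66 on chip 4, and the other 31 arrays had at least 10637. The median signal of the chip 4 arrays lay between 146.2 and 167.7, and that of all other arrays between 166.1 and 203.3.

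Probes are named here by gene and by the base of the transcript at which they start, and a value is a normalized log2 value unless a signal is named. A probe was tested when its detection p-value was below 0.01 on at least 24 of the 32 arrays. A single probe of Camk4, at base 2948, was detected on 0 arrays with a mean signal of 167.7. Camk2a 232 and Camk2d 1905 were also detected on 0 arrays, and Camk2d 1499 on 2 arrays. For these 4 probes no difference could be read at this signal. Camk4 was therefore not measurable, and Camk2a and Camk2d were measured through their other probes. Tested probes ranged in mean signal from 230.9 for Camk2d 4213 to 11440 for Camk2b 3799. Signals of different probes do not rank the amounts of different RNAs, because each probe binds with its own efficiency.

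Sequences of selected probes are given below in the 5′ to 3′ direction. Camk1 898 is shown because it crosses an exon junction, with 5 of its 50 bases past it, and Camk2d 1499 because it is an isoform probe across a junction that was nearly undetected. Capitals mark the bases after the junction. Camk1g 720 and the first 30 bases of Camk1g 2124 are shown because the probes of this gene changed in opposite directions, and the first 30 bases of Camkk1 3027 because it was lower in ethanol-treated mice in each set of arrays compared. Positions are those of the deposited table, whose genome build is not given in the sources used here. None of the 18 probes lies inside its gene in GRCm38.p6, so these positions belong to another build. Whether a probe lies in coding sequence or in a UTR is not given there either.
Camk1 898 (chromosome 6, 113286251 to 113286396, minus strand): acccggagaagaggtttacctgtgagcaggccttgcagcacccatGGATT
Camk2d 1499 (chromosome 3, 126508822 to 126511162, plus strand): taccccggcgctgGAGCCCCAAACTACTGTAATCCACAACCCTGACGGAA
Camk1g 720 (chromosome 1, 195178564 to 195178613, minus strand): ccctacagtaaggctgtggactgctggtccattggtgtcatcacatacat
Camk1g 2124 (chromosome 1, 195172819 to 195172868, minus strand): tccaggattagcttcccactgcacggagac
Camkk1 3027 (chromosome 11, 72851936 to 72851985, plus strand): tctacatcaacttatgcctaggagcagcag

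Over all arrays, 6 of the 14 tested probes passed an FDR of 10% by limma, where 25.3% of all 10187 tested probes did. Of these, 4 were higher and 2 lower in ethanol-treated mice (11.8% and 13.5% of all probes). With median scaling 4 were also higher and 2 lower, beside 11.4% of all probes, and without C66 6 passed, beside 21.1%. Among probes detected on all 32 arrays, 3 of 11 members passed, beside 26.6%, since Camk2d and Camk1g 720 then drop out. At an FDR of 1%, 4 member probes passed, 2 in each direction, beside 8.2% of all probes, and without C66 2 passed (Camk2d 1998 and Camkk1 3027), beside 5.56%. At that FDR 0 passed with median scaling or with chip as a random block. The random block left 4 member calls at an FDR of 10%, where 994 of all 10187 probes were called. The median size of the log2 difference was 0.083 over the 14 probes and 0.048 over all tested probes. The groups overlapped for all 14 probes (0.00982% of all probes did not overlap). The normalization compresses low signals, and the dim probes moved more on other scales. Camk2d 1998 differed by 0.24 on a plain log2 scale and by 0.47 after normexp background correction, and Camk1g 720 by 0.24 and 0.46. Camk1g 2124 differed by -0.18 and -0.27 on those scales and Camk2d 4213 by 0.11 and 0.23.

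**Figure D1:**
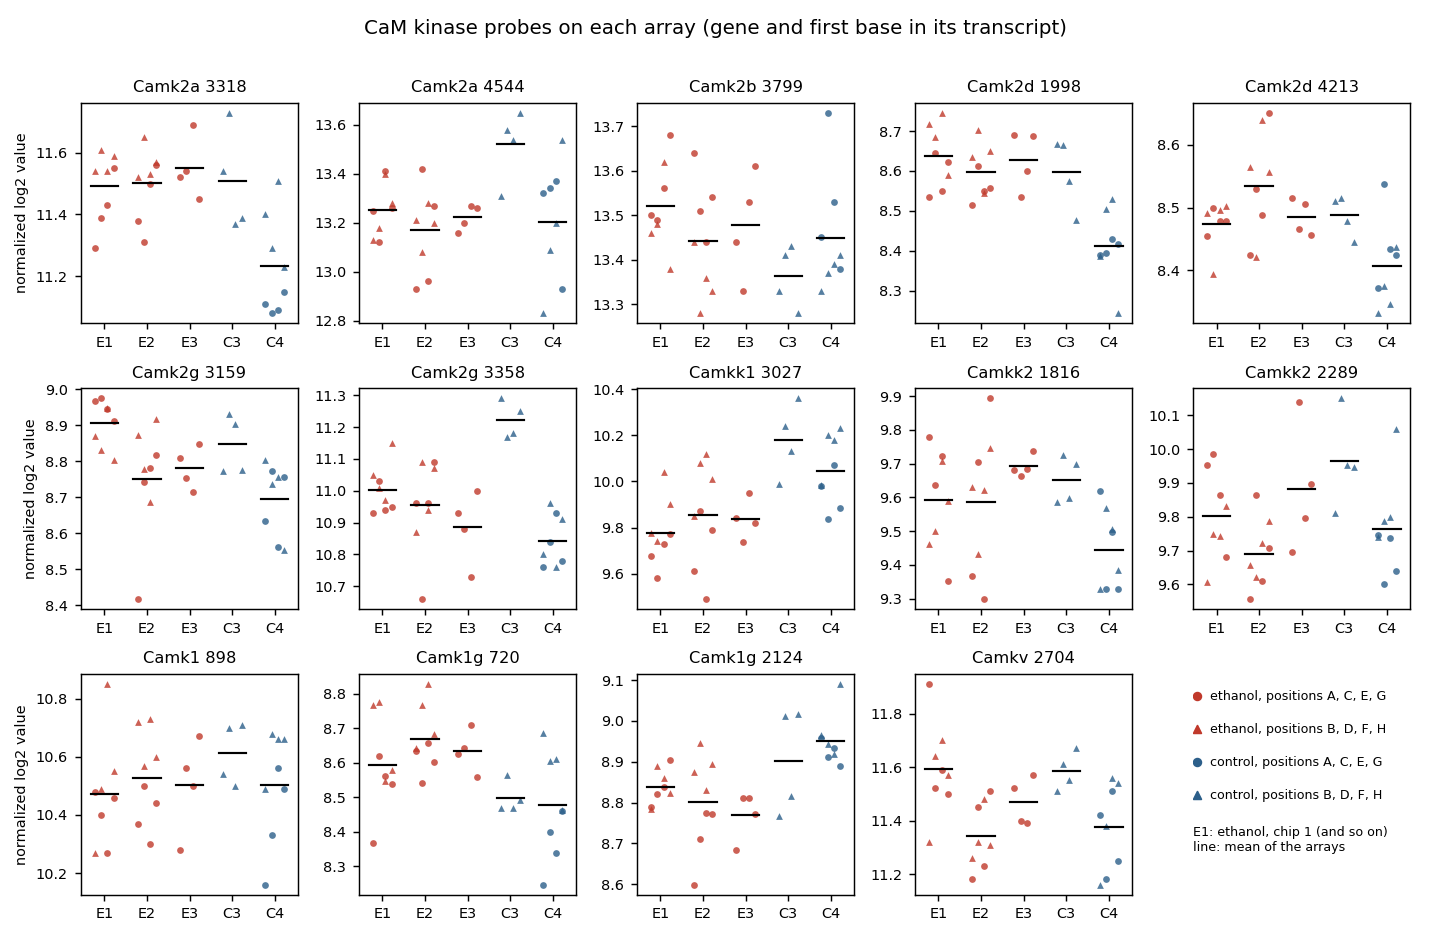
Normalized log2 value (vertical axis, own scale per panel) of the 14 tested probes on each of the 32 arrays, by group and chip, with the mean of each set as a line (E ethanol-treated, C control, digit the chip, circles odd and triangles even positions). Camk2a 3318 and Camk2d 1998 are low mainly in the controls of chip 4, and Camk2g 3358 is highest in the 4 controls of chip 3.

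Among the CaMKII subunits, whose alpha form predominates in forebrain excitatory neurons, Camk2a gave different results by probe. Camk2a 3318 lay between 11.29 and 11.69 (median 11.54) in the 20 ethanol-treated mice and between 11.08 and 11.73 (median 11.33) in the 12 controls. It rose by 0.18 on the log2 scale (SE 0.052, adjusted p = 0.012 by limma), and 18 of 20 ethanol-treated mice exceeded the control median. The low values were those of the chip 4 controls, which reached from 11.08 to 11.51, whereas on chip 3 the controls measured 11.54, 11.73, 11.37 and 11.39 and the ethanol-treated mice 11.52, 11.54, 11.69 and 11.45. The groups of chip 3 thus overlapped throughout. Their difference was 0.040 (95% interval -0.12 to 0.20). The ethanol-treated arrays of chip 3 were at the positions where this probe was lower on the other chips, as given with the positions.

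Camk2a 4544 lay between 12.93 and 13.42 (median 13.23) in ethanol-treated mice and between 12.83 and 13.65 (median 13.33) in controls, a difference of -0.093 (SE 0.064) that did not pass (adjusted p = 0.333 by limma). On chip 3 the ethanol-treated mice measured 13.16, 13.20, 13.27 and 13.26 and the controls 13.31, 13.58, 13.54 and 13.65. All 4 ethanol-treated mice were below all 4 controls there. The probe fell by 0.29 on that chip (SE 0.066, adjusted p = 0.0158 by limma). Between chips 1 and 2 and chip 4 the difference was 0.011 (95% interval -0.14 to 0.16).

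Camk2b, the beta subunit gene, whose product binds actin, had 1 tested probe. Camk2b 3799 had a mean of 13.48 ± 0.11 (SD, n = 20) with ethanol and of 13.42 ± 0.12 (SD, n = 12) without. The difference of 0.061 (95% interval -0.021 to 0.14) did not pass (adjusted p = 0.305 by limma).

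Camk2d, the delta subunit gene best known from heart, was read by 2 dim tested probes. Camk2d 1998 lay between 8.51 and 8.75 (median 8.62) in ethanol-treated mice and between 8.24 and 8.67 (median 8.45) in controls. It rose by 0.15 (SE 0.034, adjusted p = 0.00325 by limma), and all 20 treated mice exceeded the median of the controls. On chip 3 the ethanol-treated mice measured 8.69, 8.54, 8.60 and 8.69 and the controls 8.67, 8.66, 8.57 and 8.48, so that the groups overlapped and the difference was 0.032 (95% interval -0.088 to 0.15). Camk2d 4213 rose by 0.066 over all arrays (SE 0.026, adjusted p = 0.0698 by limma) and differed by -0.0016 on chip 3. Both probes were detected on all 20 arrays of ethanol-treated mice but on 11 and 9 of the 12 control arrays. The chip 4 arrays also had the lowest overall signals, and the part of signal level in the differences of these dim probes was not tested.

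Camk2g, the gamma subunit gene, showed the clearest disagreement between sets of arrays. On chip 3, Camk2g 3358 measured 10.93, 10.88, 10.73 and 10.998 in ethanol-treated mice and 11.29, 11.17, 11.18 and 11.25 in controls. These 4 controls were higher than all other 28 arrays, of which the highest reached 11.15. The probe fell by 0.34 on chip 3 (SE 0.058, adjusted p = 0.00366 by limma). In contrast, the ethanol-treated mice of chips 1 and 2 (median 10.97) were higher than the controls of chip 4 (median 10.82), by 0.14 (SE 0.044, adjusted p = 0.0237 by limma). Over all arrays these cancelled, with a difference of -0.0089 (adjusted p = 0.930 by limma) that turned to 0.045 with median scaling. Camk2g 3159, a dimmer probe, differed by 0.073 over all arrays (adjusted p = 0.243 by limma), by -0.064 on chip 3 and by 0.13 between the other chips.

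Camkk1, which encodes CaMKK alpha, an activator of CaMKI and CaMKIV, had 1 probe, which was lower in ethanol-treated mice. Camkk1 3027 lay between 9.49 and 10.12 (median 9.81) in ethanol-treated mice and between 9.84 and 10.36 (median 10.10) in controls. It fell by 0.27 (SE 0.056, adjusted p = 0.00122 by limma), and 1 of 20 ethanol-treated mice exceeded the control median. On chip 3 the ethanol-treated mice measured 9.84, 9.74, 9.95 and 9.82 and the controls 9.99, 10.24, 10.13 and 10.36, with no overlap and a fall of 0.34 (SE 0.072, adjusted p = 0.0107 by limma). Between chips 1 and 2 and chip 4 it fell by 0.23 (SE 0.069, adjusted p = 0.0164 by limma), and this call was lost with median scaling (-0.14, adjusted p = 0.291). The direction was the same on chip 3 and between the other chips, which together make up all arrays. The ethanol-treated arrays of chip 3 were at the positions where this probe was also lower on the other chips, as given with the positions.

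Camkk2, which encodes CaMKK beta, did not pass over all arrays with either probe. Camkk2 1816 had a mean of 9.61 ± 0.16 (SD, n = 20) with ethanol and of 9.51 ± 0.14 (SD, n = 12) without, a difference of 0.096 (95% interval -0.011 to 0.20, adjusted p = 0.206 by limma). Camkk2 2289 had means of 9.77 ± 0.15 (SD, n = 20) and 9.83 ± 0.17 (SD, n = 12), a difference of -0.057 (95% interval -0.16 to 0.051, adjusted p = 0.489 by limma) that was near 0 with median scaling (8.8e-05).

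Of the CaMKI genes, Camk1 had a mean of 10.50 ± 0.16 (SD, n = 20) with ethanol and of 10.54 ± 0.17 (SD, n = 12) without. The difference of Camk1 898 was -0.040 (95% interval -0.15 to 0.074, adjusted p = 0.666 by limma), and 0.018 with median scaling. Camk1g encodes CaMKI gamma, a membrane-anchored kinase involved in dendrite growth. Camk1g 720 lay between 8.37 and 8.83 (median 8.63) in ethanol-treated mice and between 8.25 and 8.69 (median 8.47) in controls, and rose by 0.15 (SE 0.040, adjusted p = 0.0084 by limma). It was above the control median in 19 of 20 ethanol-treated mice and was detected on all 20 of their arrays but on 10 of the 12 control arrays. On chip 3 the ethanol-treated mice measured 8.63, 8.64, 8.71 and 8.56 and the controls 8.47, 8.56, 8.47 and 8.49, so that only the lowest ethanol-treated mouse lay within the range of the controls. The rise on that chip was 0.14 (SE 0.048, adjusted p = 0.0852 by limma), close to that over all arrays. This call on chip 3 was lost with median scaling (adjusted p = 0.196) and when any of 6 arrays was left out in turn, those of ethanol-treated A46, A47 and A49 and of controls C52, C55 and C56 (adjusted p from 0.132 to 0.201 by limma, differences from 0.11 to 0.14).

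Camk1g 2124, a probe of the same transcript, went the other way. It lay between 8.60 and 8.95 (median 8.82) in ethanol-treated mice and between 8.77 and 9.09 (median 8.94) in controls, and fell by 0.13 (SE 0.031, adjusted p = 0.0050 by limma), and 1 of the 20 treated mice exceeded the median of the controls. On chip 3 the ethanol-treated mice measured 8.68, 8.81, 8.81 and 8.77 and the controls 8.77, 9.01, 8.815 and 9.02. The groups of chip 3 overlapped through control C52, which lay below 3 of the 4 ethanol-treated mice, and the difference of -0.13 did not pass there (SE 0.062, adjusted p = 0.192 by limma), though it did with C52 left out (-0.18, adjusted p = 0.081). Camkv 2704 had a mean of 11.47 ± 0.18 (SD, n = 20) with ethanol and of 11.45 ± 0.17 (SD, n = 12) without, a difference of 0.022 (95% interval -0.098 to 0.14, adjusted p = 0.834 by limma).

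To see which differences held within and between chips, the comparison was made separately. On chip 3, 4 member probes passed an FDR of 10% by limma, beside 16.9% of all probes. Camk2g 3358, Camkk1 3027 and Camk2a 4544 were lower (8.65% of all probes) and Camk1g 720 was higher (8.25%). With median scaling the same 3 were lower and 0 were higher, beside 6.51% of all probes. The 3 lower probes were also the only ones of the 14 whose groups did not overlap on chip 3, which held for 15.2% of all probes. Between the ethanol-treated mice of chips 1 and 2 and the controls of chip 4, 9 probes passed, beside 31.4% of all probes. In that set 7 were higher (Camk2d 1998, Camk2a 3318, Camk2g 3358, Camk1g 720, Camk2d 4213, Camk2g 3159 and Camkk2 1816) and 2 lower (Camk1g 2124 and Camkk1 3027), where 14.8% and 16.7% of all probes were, whereas median scaling gave 7 higher and 0 lower, beside 16.5% of all probes. Without the array of C66, 7 passed there, beside 27.8% of all probes, and the calls of Camk2g 3159 and Camkk2 1816 were lost. With odd or even positions alone 5 passed in each, beside 16.8% and 15.8% of all probes.

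**Figure D2:**
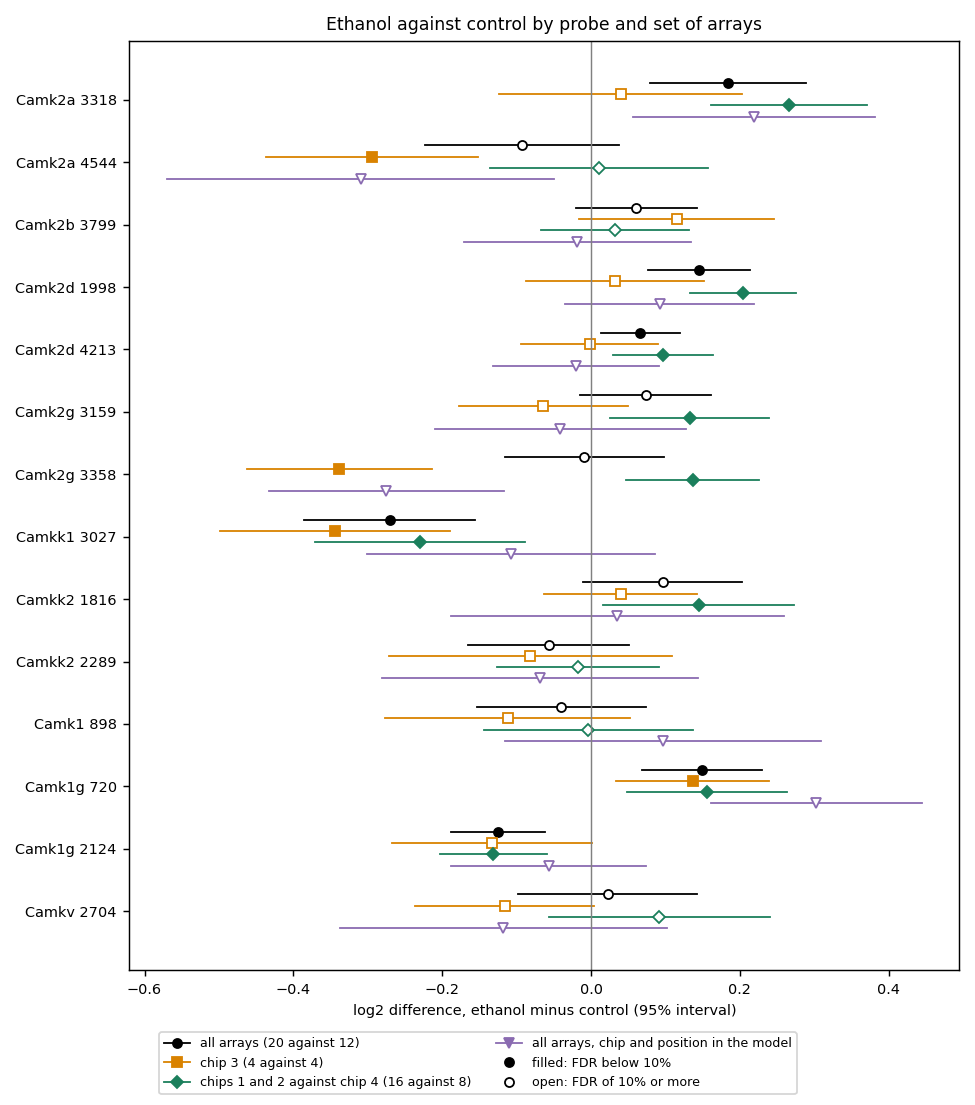
Log2 difference between ethanol-treated mice and controls with its 95% interval (horizontal axis) for each tested probe, over all arrays, on chip 3, between chips 1 and 2 and chip 4, and over all arrays with chip and position in the model; filled symbols passed an FDR of 10%. Camkk1 3027 and Camk1g 2124 lie below 0 and Camk1g 720 above 0 in all 4, while Camk2g 3358 lies below 0 on chip 3 and above 0 between the other chips.

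The difference on chip 3 was tested against that of the other chips by an interaction term in limma, and 2 member probes passed, beside 14.9% of all probes. For Camk2g 3358 the interaction was -0.47 (SE 0.081, adjusted p = 6.7e-04). For Camk2d 1998 it was -0.17 (SE 0.066, adjusted p = 0.0969). For both probes of Camk1g the interaction was close to 0, at -0.019 for Camk1g 720 (SE 0.092) and -0.0012 for Camk1g 2124 (SE 0.070), and for Camkk1 3027 it was -0.11 (SE 0.13). When chip entered the model as a block, only chip 3 could inform the treatment term, and 2 member probes passed by limma, beside 6.67% of all probes. These were Camk2g 3358 (adjusted p = 0.0120) and Camkk1 3027 (adjusted p = 0.0721). Chip 1 against chip 2, which held ethanol-treated mice only, gave 1 call, Camkv 2704 with 0.25 (SE 0.067, adjusted p = 0.0844 by limma), beside 2.05% of all probes.

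Position could be examined on chips 1, 2 and 4, each of which held a single group. Between odd and even positions, 6 member probes passed an FDR of 10% by limma, beside 20% of all probes (10.1% higher and 9.89% lower at odd positions). At odd positions, Camkk1 3027 differed by -0.24 (SE 0.047, adjusted p = 0.00236), Camk1 898 by -0.21 (SE 0.051, adjusted p = 0.0099) and Camk2a 3318 by -0.18 (SE 0.035, adjusted p = 0.00236). Camk1g 720 and Camk1g 2124 were also lower there, with differences of -0.17 and -0.076, and Camk2b 3799 was higher, by 0.13. Within odd and within even positions, the ethanol-treated mice of chips 1 and 2 differed from the controls of chip 4 by -0.25 and -0.21 for Camkk1 3027, by 0.20 and 0.11 for Camk1g 720 and by -0.15 and -0.12 for Camk1g 2124. Since the ethanol-treated mice of chip 3 occupied odd positions, the position difference of Camkk1 and of Camk1g 2124 ran in the direction of their treatment difference on that chip, and that of Camk1g 720 ran against it. The position difference of Camk2a 3318 also ran against its difference on chip 3. With position alone as a covariate, Camk2a 3318 rose by 0.23 over all arrays (adjusted p = 0.00037 by limma). With chip and position both in the model, 0 member probes passed by limma at an FDR of 10%, beside 0.0393% of all probes. In that model Camk1g 720 had the lowest unadjusted p of the 14 (difference 0.30, SE 0.070, adjusted p = 0.118), Camkk1 3027 differed by -0.11 (SE 0.095, adjusted p = 0.767) and Camk1g 2124 by -0.057 (SE 0.064, adjusted p = 0.834). Camk2a 3318 differed by 0.22 in the same model (adjusted p = 0.332 by limma).

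Markers of cell types were read in the same comparisons. Over all arrays 6 of 39 tested markers were higher and 3 lower, beside 10.3% and 14.4% of all tested genes. Slc17a7 fell by 0.25 and Tbr1 by 0.30, both of excitatory neurons, and the astrocyte gene Aqp4 rose by 0.44 (adjusted p of 0.00477, 0.00038 and 0.00146 by limma). Of the 5 tested astrocyte markers 2 were higher, and the median difference of the 5 was 0.042. Interneuron markers were higher in 2 of 5 and endothelial markers in 2 of 4, and 1 of 8 oligodendrocyte markers was lower. On chip 3, 10 markers were higher and 7 lower, beside 8.92% and 8.59% of all tested genes. Of the excitatory neuron markers, 2 of 5 could be tested, and both fell there, Slc17a7 by 0.45 and Tbr1 by 0.47 (adjusted p of 0.00125 and 0.0102 by limma). Their summed level ran from 4413 to 6892 in ethanol-treated mice and from 5441 to 7685 in controls over all arrays, and Neurod6 was detected on 0 arrays. On chip 3 that sum differed by -0.46 on the log2 scale. Of 8 tested oligodendrocyte markers 5 were lower on chip 3, where their sum differed by -0.28 (over all arrays 21660 to 47820 in ethanol-treated mice and 19960 to 39190 in controls). Of 4 tested olfactory bulb markers 3 were higher there, among them Pcdh21 by 1.25, and their sum differed by 0.76 (over all arrays 1289 to 5333 and 1237 to 3779). Astrocyte markers were higher there in 3 of 5 (17700 to 23350 and 15980 to 23770), interneuron markers in 2 of 5 (19470 to 23290 and 17610 to 22030, with Gad2 at 0 arrays) and endothelial markers in 2 of 4 (2980 to 3654 and 2778 to 3823). Microglia (0 of 5, with Itgam at 0 arrays), striatum (0 of 3, with Adora2a at 0 arrays) and blood (0 of 3) had no marker called on chip 3 by limma, and none of the choroid plexus markers was tested, with Kl and Folr1 at 0 arrays. At odd positions of chips 1, 2 and 4, Slc17a7 differed by -0.19 and Tbr1 by -0.11 (adjusted p of 0.0456 and 0.117 by limma). Aqp4 differed there by 0.29 and Pcdh21 by 0.75 (adjusted p of 0.0501 and 0.121 by limma). The chip 3 differences of these genes ran the same way, while that of the endothelial gene Cldn5 did not (0.40 against -0.034). With chip and position in the model Slc17a7, Tbr1, Aqp4 and Pcdh21 did not pass (adjusted p from 0.234 to 0.843 by limma). The part of the markers in the differences of the members, over all arrays or on chip 3, was not tested. In whole tissue, fewer cells of a type and less RNA per cell cannot be told apart.

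For the 5 genes with a pair of tested probes, the difference between the probes was taken on each array, which removes whatever an array does to both probes alike. The difference between Camk1g 2124 and Camk1g 720 was 0.18 ± 0.12 (SD, n = 20) with ethanol and 0.45 ± 0.14 (SD, n = 12) without, a change of -0.27. This gave p = 1e-05 by a two-sided permutation test, the smallest that 100000 resamples can give, and 5e-05 after Benjamini-Hochberg adjustment over the 5 genes. The change was -0.27 on chip 3 (p = 0.0286 by an exact permutation test, the smallest that 4 against 4 allows, adjusted p = 0.0715). It was -0.35 at odd and -0.22 at even positions between chips 1 and 2 and chip 4. It was negative in each of these sets of arrays.

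The difference between Camk2a 4544 and Camk2a 3318 changed by -0.28 over all arrays (adjusted p = 0.0062, permutation test) and by -0.33 on chip 3 (p = 0.0571, exact permutation test, adjusted p = 0.0952). That between Camkk2 2289 and Camkk2 1816 changed by -0.15 (adjusted p = 0.0088, permutation test) and by -0.12 on chip 3 (p = 0.314, exact permutation test). For Camk2d and Camk2g the changes of 0.079 and -0.082 over all arrays did not pass (adjusted p of 0.0713 and 0.174, permutation test), although that of Camk2g on chip 3, -0.27, gave p = 0.0286 (adjusted p = 0.0715, exact permutation test). These permutation tests over all arrays take no account of chip.

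**Figure D3:**
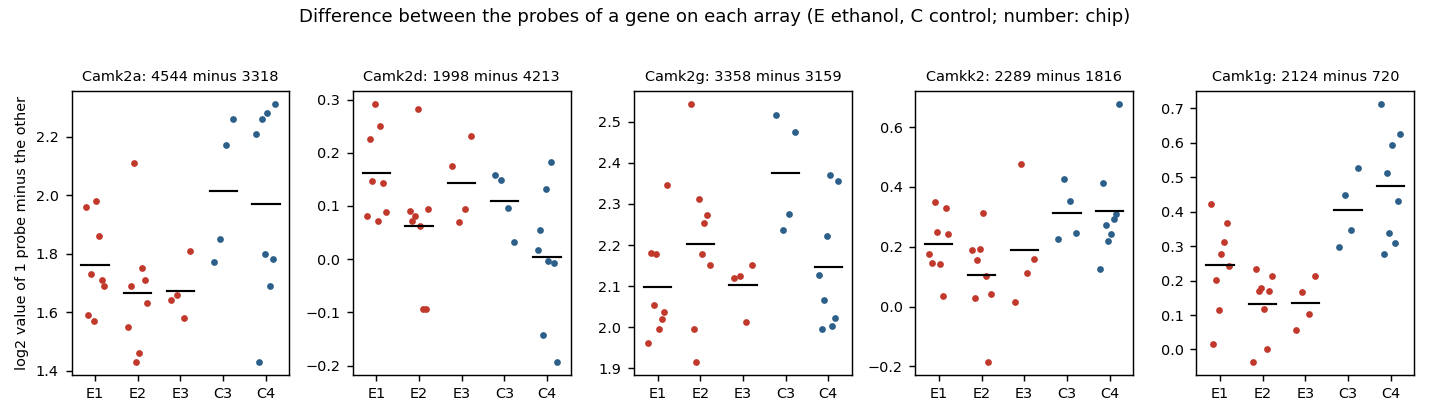
Log2 value of 1 probe minus that of the other probe of the same gene (vertical axis) on each array, by group and chip, with the mean of each set as a line. The Camk1g difference averages 0.18 in ethanol-treated mice and 0.45 in controls, and both control sets lie higher on average than all 3 ethanol sets.

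To describe which members varied together from mouse to mouse, values were centred within the 8 sets of treatment, chip and position and correlated over the 32 arrays. Among the 91 pairs of probes the median correlation was 0.025, and 6.59% exceeded 0.5, against 1.17% of the pairs among all 7926 tested genes. These sets are unlike, since members enter by every tested probe and the other genes by their brightest probe. Most of the 6 member pairs above 0.5 include Camk2a 4544. The highest were those of Camk2a 4544 with Camkk1 3027 (0.70), of Camkk2 1816 with Camkv 2704 (0.66), of Camk2a 4544 with Camkv 2704 (0.62) and of Camkk1 3027 with Camkv 2704 (0.61). Camk1g 720 ran opposite to these, at -0.55 with Camkv 2704 and -0.52 with Camk2a 4544. Probes of the same gene did not vary together except for Camkk2 (0.47), and the correlations were -0.24 for Camk2a, -0.12 for Camk2d, -0.10 for Camk2g and -0.035 for Camk1g. All these values share the same arrays and their signal levels, and no test was made of them.

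**Figure D4:**
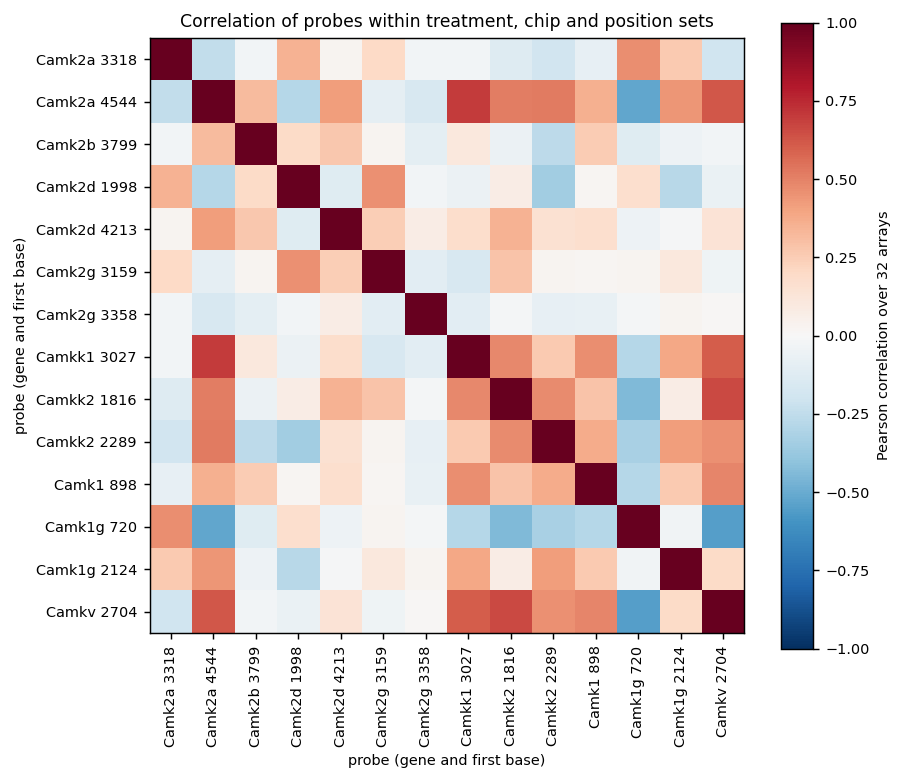
Pearson correlation over 32 arrays of each pair of tested probes, after centring within sets of treatment, chip and position, from -1 (blue) to 1 (red). Camk2a 4544, Camkk1 3027, both Camkk2 probes and Camkv 2704 are all positive with one another, and Camk1g 720 is negative with Camkv 2704 (-0.55).

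By the same measure, with each gene read by its brightest probe, the genes outside the family most like Camk2a were Zmiz2 (0.90) and Gas2l1 (0.87). Those most like Camkk1 were Ube3b (0.74) and Kifc2 (0.73), and those most like Camkv were Mmp24 (0.80) and Cherp (0.79). Rap2a was among the genes most like Camk1 (0.74). Camk1g was most like Rilpl1 (0.77), Camk2g like Lysmd2 (0.75), Camkk2 like Sdad1 (0.75) and Zfp316 (0.66), Camk2d like Rela (0.71) and Camk2b like Ankle2 (0.65) and Tardbp (0.63).

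The surrounding pathway was read through a list of 64 genes for calmodulins, inhibitors, related kinases, calmodulin-binding proteins, phosphatases and targets. Of the 51 that could be tested by their brightest probe, 7 were higher, 9 lower and 35 did not pass an FDR of 10% by limma, where 24.8% of all tested genes passed (10.3% higher and 14.4% lower). At an FDR of 1%, 2 were higher and 4 lower, beside 8.05% of all tested genes. The median log2 difference was -0.0046 over the list and -0.0057 over all tested genes. With median scaling 3 were higher and 1 lower (9.59% of all genes called), and with chip as a fixed block 3 passed (6.79% of all genes).

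Among the calmodulins, Calm2 differed by 0.14 (adjusted p = 0.112) and Calm3 by 0.031 (adjusted p = 0.630, and 0.15 with adjusted p = 0.0617 on chip 3) by limma. Camk2n1, whose product inhibits CaMKII, differed by -0.038 (adjusted p = 0.577 by limma), and Camk2n2 had no probe. Camk1d, a further CaMKI gene, had a mean of 8.89 ± 0.15 (SD, n = 20) with ethanol and of 8.70 ± 0.12 (SD, n = 12) without and rose by 0.19 (SE 0.048, adjusted p = 0.0055 by limma), with 0.10 on chip 3 (adjusted p = 0.461). Pnck, the CaMKI beta gene, differed by -0.024 over all arrays (adjusted p = 0.785 by limma) and fell by 0.24 on chip 3 (adjusted p = 0.0165).

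Genes acting downstream, given here with the calmodulin-binding gene Nrgn, included both directions. Arc, an activity-regulated gene of the synapse, had a mean of 10.58 ± 0.35 (SD, n = 20) with ethanol and of 11.05 ± 0.25 (SD, n = 12) without and fell by 0.47 (SE 0.11, adjusted p = 0.00239 by limma), with -0.23 on chip 3 (adjusted p = 0.313). With chip and position in the model Arc differed by -0.0061. The other 4 of the 5 tested activity genes were not called over all arrays, and Bdnf among them rose by 0.32 on chip 3 (adjusted p = 0.0140 by limma). Nrgn, whose product neurogranin binds calmodulin, fell by 0.18 (adjusted p = 0.00477 by limma), with -0.049 on chip 3 (adjusted p = 0.586). Crtc1, a coactivator of CREB, fell by 0.16 (adjusted p = 0.0077 by limma), with -0.19 on chip 3 (adjusted p = 0.103). Of the AMP-activated protein kinase, the catalytic subunit gene Prkaa2 rose by 0.19 (adjusted p = 0.0068 by limma) and the regulatory subunit gene Prkag1 fell by 0.13 (adjusted p = 0.0084). Within chip 3 the differences were 0.24 for Prkaa2 and -0.12 for Prkag1, with adjusted p of 0.0463 and 0.0885 by limma, and neither passed with chip as a fixed block in the fit of all arrays (adjusted p of 0.142 and 0.290). Likewise Calm3 and Pnck passed on chip 3 alone but not with the block (adjusted p of 0.240 and 0.121 by limma). With median scaling the calls of Nrgn, Crtc1 and Prkag1 over all arrays were lost (adjusted p of 0.186, 0.185 and 0.370 by limma), and those of Camk1d, Prkaa2 and Arc held at an FDR of 10%.

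**Figure D5:**
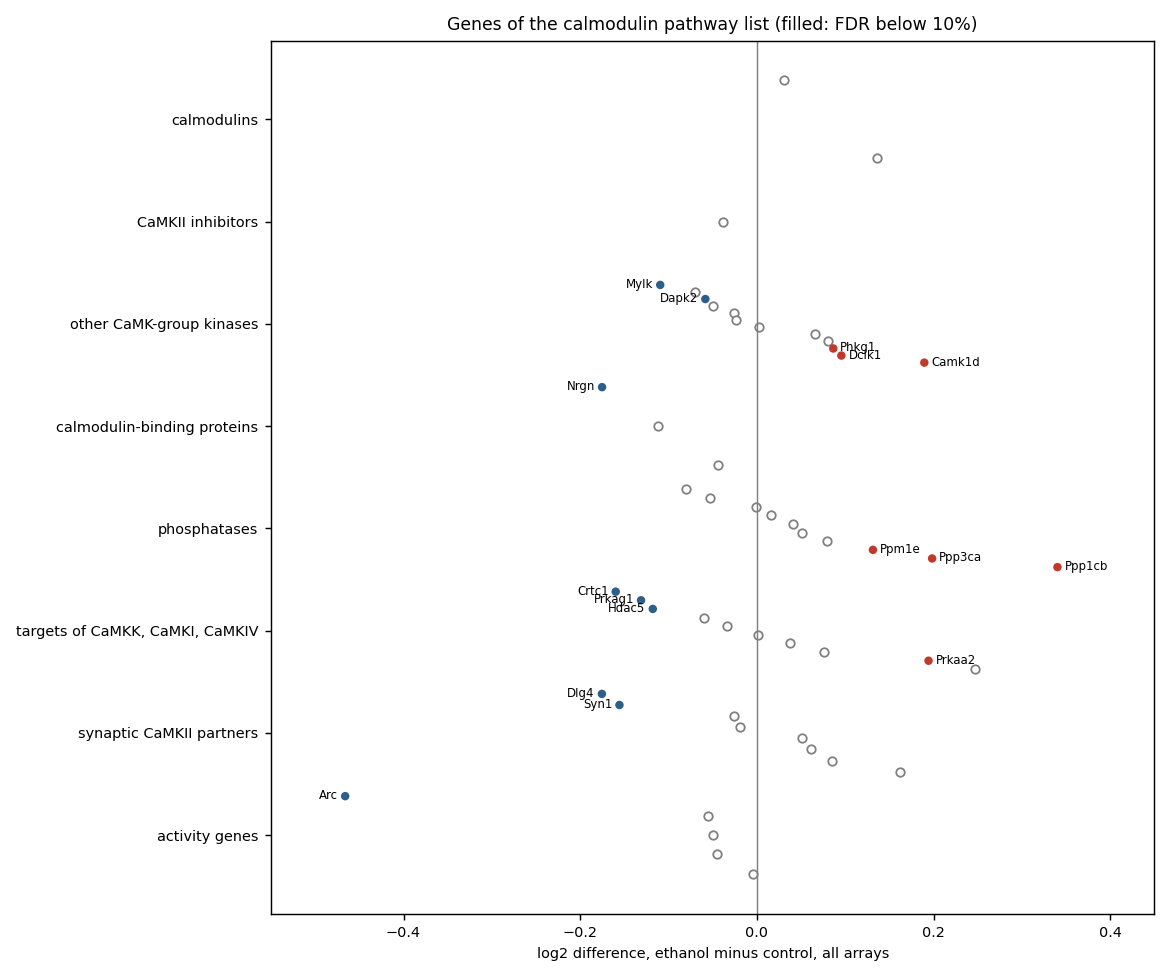
Log2 difference between ethanol-treated mice and controls over all arrays (horizontal axis) of the 51 tested genes of the calmodulin pathway list, by role; filled and named points passed an FDR of 10%. The list splits into 7 higher and 9 lower genes, with Arc at -0.47 the lowest.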

How the data were processed

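FCtx RNA of 32 mice was labelled and hybridized to Illumina MouseRef-8 arrays, 1 per mouse. The authors deposited a bead summary table holding, per probe and array, the mean bead signal as an intensity that is not normalized, a detection p-value, and as other values the bead standard error and bead number. The array software and its background step are not given in the sources used here. The Methods name lumi and limma.

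Signals were variance-stabilized from the bead errors by a transform written anew after the one the Methods name, and quantile-normalized. This compresses low signals, so differences of dim probes are smaller than on a plain log2 scale, and differences are on the normalized log2 scale. The 10187 probes detected on at least 24 arrays (detection p-value below 0.01) were tested by limma 3.58.1 in R 4.3.3 (tables read by the data.table package, version 1.17.8). Adjusted p-values are Benjamini-Hochberg over all tested probes, and calls are made at an FDR of 10%. Tests across arrays measure the spread between arrays of 1 mouse each, in which mouse and array position are not separated. Where treatment coincides with chip, they do not measure the spread between chips. Probe differences were compared by permutation of arrays (100000 resamples, or all regroupings on chip 3). Figures were drawn in Python 3.11.15 with numpy 2.4.6, pandas 2.3.3 and matplotlib 3.10.9. Scripts were tested on simulated data.

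The members, gene lists and tests were chosen with earlier results of these data known. Named were all members, set pathway genes, further pathway genes at an FDR of 1%, and genes most correlated with a member. 0 columns of values were left without a sample. The table gives some symbols as numbers, and 1 such probe, the second most like Camk2d, was not named. Likewise, 2 probes with clone or locus names were not named. Some genes that this rule would name are not reported here.

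Alternatives were a plain log2 scale, median scaling, normexp background correction (offset 16), other probe filters, chip or position in the model, array weights, other thresholds, and leaving out arrays. Those for the probe differences were added after seeing the data.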

Additional observations from a re-analysis of the deposited data

Results flagged for a closer look

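In 70 sets of arrays of a probe, group and chip, 4 had an array farther from the others than the 95% limit of Dixon's test, which chance passes in about 1 in 20 sets. On chip 1, Camk2d 4213 measured 8.394 in ethanol-treated mouse A19 and from 8.455 to 8.503 in the others. On chip 2, Camk2g 3159 measured 8.418 in ethanol-treated mouse A28 and from 8.687 to 8.918 in the others. On chip 4, control C66 had 10.06 for Camkk2 2289 (others 9.602 to 9.799) and 9.09 for Camk1g 2124 (others 8.89 to 8.965), and this array also had the fewest detected probes. Without it, Camk1g 2124 fell by 0.11 over all arrays (adjusted p = 0.0133 by limma).

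The ethanol difference of chip 3 was lower than that of the other chips for Camk2g 3358, by -0.475 on the log2 scale, and for Camk2d 1998, by -0.172, both past an FDR of 10% by a limma interaction term.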

How the results depend on the processing

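Counts of calls, of member probes or of pathway genes, stayed within 1.5 times the reported count under 23 of 30 alternatives. An FDR of 1% was among these for the members over all arrays only. At that FDR the counts on chip 3, between the other chips and of pathway genes fell outside that range. Against 6 calls over all arrays, there were 3 among probes detected on all arrays (26.6% of all such probes). With chip as a fixed block there were 2 (6.67% of all probes), and with chip and position 0 (0.0393%). Against 9 calls between chips 1 and 2 and chip 4, there were 5 at odd positions (A, C, E, G) alone (16.8% of all probes) and 5 at even positions (15.8%), with fewer arrays in each. Against 16 pathway calls, there were 4 with median scaling and 3 with chip as a fixed block. Leaving out each array of chip 3 in turn gave 3 to 4 calls there, where 992 to 1760 of all 10187 probes were called. Without C66, 6 members were called over all arrays (21.1% of all probes), but 2 at an FDR of 1% (5.56%).

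Signs turned in these cases. Over all arrays, chip as a fixed block gave -0.0016 for Camk2d 4213, -0.064 for Camk2g 3159 and -0.12 for Camkv, and the random block -0.0079 for Camkv. Chip with position gave -0.019 for Camk2b, -0.020 for Camk2d 4213, -0.041 for Camk2g 3159, 0.097 for Camk1 and -0.12 for Camkv. Median scaling gave 0.045 for Camk2g 3358, 8.8e-05 for Camkk2 2289 and 0.018 for Camk1, and position as a covariate 0.028 for Camk2g 3358 and 0.0097 for Camk1. On chip 3, leaving out arrays moved Camk2a 3318 between -0.0063 and 0.11, Camk2d 1998 between -0.0071 and 0.063 and Camk2d 4213 between -0.015 and 0.0082. Between chips 1 and 2 and chip 4, odd positions gave -0.035 for Camk2a 4544, 0.097 for Camkk2 2289 and 0.016 for Camk1, leaving out C66 gave 0.025 and 0.018 for the latter genes, and median scaling gave 0.066 and 0.080. The cause was not tested.

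No paired analysis was possible because mouse numbers are not shared between the groups. The number of arrays, and for Camk2d and Camk1g signals near background, limit precision.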
